A study of Mus musculus with 12 samples.

Results

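The transcriptional response to bacterial lipopolysaccharide (LPS) was measured in wild-type intestinal subepithelial myofibroblasts (ISEMFs) of the mouse colon. These are contractile stromal cells found directly under the gut epithelium. The arrays were chosen by their labels: 3 mouse ISEMF lines of miR-143/145 wild-type genotype (WT5, WT7 and WT13), each hybridised once after 24 h with 1 ug/mL LPS and once untreated, which makes 6 of the 12 arrays of the study. The other 6 arrays hold 3 lines null for the microRNA cluster (KO4, KO10 and KO15), treated in the same way. They enter the normalisation, the filter on dim probes and the estimate of the spread, and they are compared with the WT lines near the end. All lines were grown in DMEM with fetal bovine serum, insulin, transferrin, antibiotics and murine epidermal growth factor, which holds for the untreated cells too. The markers Acta2, Myh11 and Vim were detected on all 6 WT arrays. The labels give no age and no animal of origin for the lines, so the p-values describe the spread among 3 lines per genotype, which may be technical in part.

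LPS is recognised at the cell surface by Toll-like receptor 4 (Tlr4) with its partner MD-2 (Ly96) and the co-receptor Cd14. One arm of the signal runs through the adaptor Myd88 to the transcription factor NF-kB, which drives chemokine and cytokine genes together with its own inhibitors. The other arm runs through the adaptor TRIF (Ticam1) to interferon, which acts back on the cell through the Stat2 and Irf9 complex and switches on antiviral genes. Myofibroblasts are known for their contractile apparatus, for collagen-rich matrix, and for the growth factors they supply to the epithelial crypt above them.

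The values are log2 array signals after background correction and quantile normalisation, listed for lines WT5, WT7 and WT13 in that order. A change is the mean over the 3 lines of the LPS array minus the untreated array of the same line. The standard error (SE) written after it is limma's moderated one. It comes from a spread pooled over both genotypes and does not give the spread among the 3 WT lines of that gene. Adjusted p-values come from limma's moderated test with Benjamini-Hochberg adjustment over all 11060 genes, and a gene was called below 0.05. Where none of the arrays in a group detected a gene, its fold is given as a lower bound, written "at least". Such a gene entered the tests through the arrays that did detect it, so counts and medians of a list describe its tested members only, and a second median with these genes at their bound is given for the lists it moved most. The slide was confounded with treatment: the LPS arrays shared one slide and the untreated arrays another, and the effects of LPS and slide cannot be told apart in any value below. Median unnormalised signals ran between 115.5 and 136.1 over the 12 arrays, and 42.5% to 44.7% of probes were detected. The highest of these medians and shares belonged to the LPS array of WT13, which also correlated least with the other LPS arrays of its group (mean r 0.987, against 0.990 and 0.991 for the LPS arrays of WT7 and WT5). Calls and changes that rest on that array are given with and without line WT13.

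After 24 h with LPS, 1348 genes were higher (12.2% of those tested) and 1644 were lower (14.9%), so that 27.1% of genes were called in either direction. These shares are the measure for the counts of called list members below. The rises were the larger changes. A difference of 2-fold or more was reached by 292 of the genes called higher and by 103 of those called lower, and one of 4-fold or more by 79 and 3. The 2-fold counts were 145 and 28 in the authors' processed values and 131 and 27 without background correction. A rise of 16-fold or more was measured for 13 genes. The 3 lines moved the same way for 1345 of the genes called higher and for 1642 of those called lower. The calls were made from these same changes, so this count is not separate evidence of agreement between lines. The median change over all genes tested was -0.06. Without line WT13, 928 genes were called higher and 969 lower, and without WT5 the lower calls numbered 958.

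**Figure D1:**
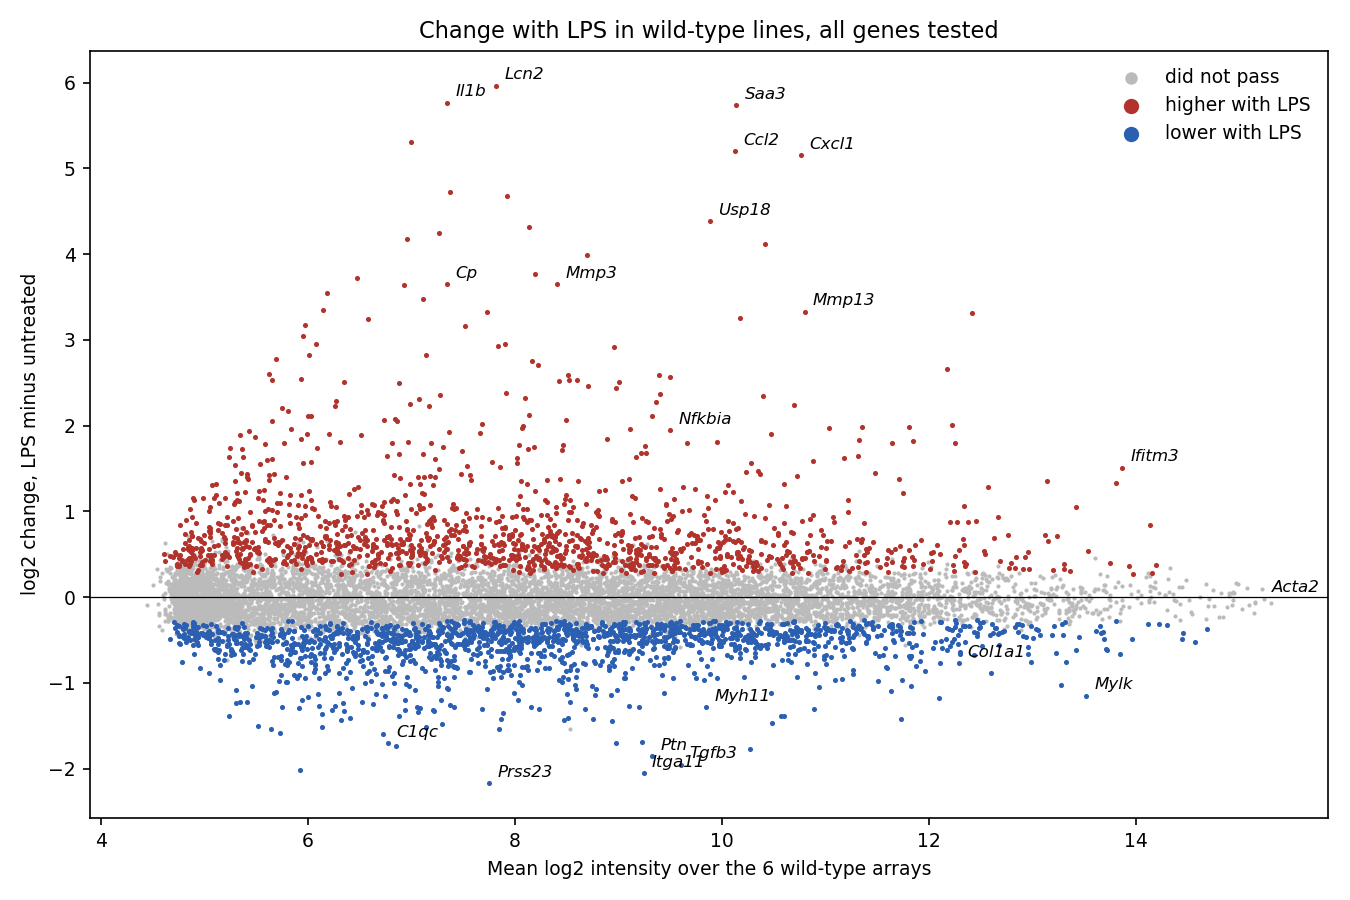
Change with LPS in WT lines (vertical axis, log2) against the mean log2 level over the 6 WT arrays (horizontal axis), 1 point per gene, with called genes in colour. The upper edge reaches 5.97 for Lcn2, while the lower edge ends at -2.17 for Prss23.

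Lcn2, Saa3, Ccl2 and Cxcl1 had the greatest rises among genes detected in both groups. Lcn2, a lipocalin that withholds iron-binding siderophores from bacteria, was at 10.80, 10.66 and 10.95 with LPS, against 4.47, 5.43 and 4.61 untreated. The untreated values of Lcn2 sit near the detection limit, with 1 of 3 arrays detected, and every LPS value lies far above them (62.5-fold, change 5.97 ± 0.38, adjusted p = 2.49e-05). That fold is set in part by values at background. Saa3, a serum amyloid A protein of the acute phase response, stood at 12.89, 13.01 and 13.12 with LPS, against 6.01, 8.39 and 7.42 untreated, and the untreated lines differed among themselves more than the LPS-treated lines did (53.3-fold, change 5.73 ± 0.42, adjusted p = 4.69e-05). Ceruloplasmin (Cp), a copper-carrying ferroxidase, rose 12.5-fold. The pentraxin Ptx3, a soluble pattern recognition protein, was detected on 3 LPS arrays and on 0 untreated arrays, with means of 8.33 and 4.61, and was at least 10.6-fold higher. Slpi, a secreted inhibitor of leukocyte proteases, rose by 2.51 ± 0.13. Of the 22 acute phase and innate secreted proteins listed, 12 were tested, 7 were higher and 0 lower, with a median change of 0.74. Of the 12, no untreated array detected 6, and the median was 0.25 with bounds. Over the alternatives the median ran from 0.22 without background correction to 3.08 with a stricter filter. The remaining 5 were not called.

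Changes on the receptor side of the pathway were small at the median. Of 14 genes tested from the list of LPS receptor components and adaptors, 5 were higher and 1 was lower, with a median change of 0.11. Over all genes tested, 12.2% were higher and 14.9% lower. Without WT5, 3 were higher, and without KO15 also 3. The co-receptor Cd14 was at 9.25, 8.52 and 8.73 with LPS, against 7.51, 6.81 and 7.32 untreated, a rise of 1.62 ± 0.13, adjusted p = 6.83e-05. Its LPS values all exceed its untreated values. Tlr4 itself was at 7.99, 7.87 and 8.05 with LPS, against 7.36, 7.54 and 7.36 untreated, and its groups did not overlap either (change 0.55 ± 0.10, adjusted p = 0.0049). Irak3, an inhibitory member of the IRAK kinase family, rose by 0.96 ± 0.14, and Tab1, a partner of the kinase TAK1, fell by 0.45 on the log2 scale (adjusted p = 0.00927). For Ly96 the change was 0.34 (adjusted p = 0.0499, and 0.239 and 0.135 without WT5 and WT7, or 0.074 to 0.0791 without a null line). Myd88 was at 11.14, 11.21 and 10.82 with LPS, against 10.90, 10.93 and 11.06 untreated. Its groups overlap, and its change of 0.09 ± 0.12 was not called. Among the other Toll-like and NOD receptors, Tlr2, which senses bacterial lipoproteins, rose by 1.41 ± 0.16, while Tlr5, the flagellin receptor, fell to 5.31, 5.49 and 5.14 with LPS, against 5.91, 5.97 and 5.78 untreated (change -0.57 ± 0.09, adjusted p = 0.00195). In that list 3 of the 6 genes tested were higher and 1 was lower, with a median of 0.30, or 0.00 with 2 genes at their bounds.

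Calls among NF-kB genes were all rises. Of 20 tested, 11 were higher and 0 lower, with a median change of 0.65 (0.23 without background correction), and the LPS and untreated groups were separate, with LPS above, for 13 (16.9% over all genes tested). Inhibitors of the pathway were among the members called. Nfkbia, the inhibitor IkB-alpha that holds NF-kB in the cytoplasm, was at 10.63, 10.49 and 10.31 with LPS, against 8.53, 8.65 and 8.39 untreated. The LPS values are close to one another and well above the untreated ones (3.86-fold, change 1.95 ± 0.15, adjusted p = 6.52e-05). Bcl3 and Nfkbiz, nuclear members of the same inhibitor family, rose by 2.26 ± 0.23 and 1.58 ± 0.20. Tnfaip3 (A20, a ubiquitin-editing inhibitor) and Zc3h12a (an RNase that degrades cytokine mRNAs) rose by 1.71 ± 0.17 and 1.91 ± 0.25. The subunits Nfkb2 and Relb rose by 1.12 ± 0.11 and 0.93 ± 0.14. The other 9 members tested were not called.

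Chemokines, the secreted proteins that attract leukocytes, made up many of the greatest rises. Of 9 CXC chemokines tested, 8 were higher and 0 lower, with a median change of 2.54. Of 15 CC and CX3C chemokines, 12 were higher and 0 lower, with a median of 1.45. No untreated array detected 3 genes of either list, and the medians with bounds were 1.99 and 1.15. Over the alternatives these medians ran from 0.91 to 2.88 and from 0.55 to 2.20, both lowest without background correction. Cxcl1, a neutrophil attractant, was at 13.56, 12.95 and 13.51 with LPS, against 7.58, 8.88 and 8.08 untreated (35.7-fold, change 5.16 ± 0.48, adjusted p = 0.00015). The lowest LPS value of Cxcl1 lies far above its highest untreated value. Cxcl2, which acts on the same receptor, was detected on 0 untreated arrays and was at least 26.5-fold higher, with means of 9.65 and 4.35. Cxcl10, an attractant of T cells and a known interferon target, was at 10.92, 9.76 and 9.55 with LPS, against 7.13, 6.28 and 5.53 untreated, and line WT5 was the highest in both groups (change 3.77 ± 0.32, adjusted p = 9.76e-05). Cxcl9, of the same receptor group, was at least 3.98-fold higher. Cxcl16, a membrane-bound chemokine, rose 7.55-fold. Cxcl12, the constitutive stromal chemokine, was at 12.01, 12.13 and 11.37 with LPS, against 12.02, 11.93 and 11.40 untreated. Its change of 0.05 ± 0.09 was not called, and its sign turned under other settings given at the end.

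Among the CC chemokines, Ccl2, an attractant of monocytes, was at 13.003, 12.51 and 12.67 with LPS, against 7.13, 8.12 and 7.32 untreated (36.8-fold, change 5.20 ± 0.45, adjusted p = 0.000104). Ccl7, which shares receptors with it, had LPS values of 14.08, 14.04 and 14.10, against 10.38, 11.16 and 10.76 untreated, so that the treated lines lay close together (SD 0.03 with LPS and 0.39 untreated). Ccl5 rose 25.6-fold and Ccl3 26.4-fold, and Ccl4 rose by 2.71 ± 0.13. Ccl20, an attractant of dendritic cells and Th17 cells, was detected on 0 untreated arrays and was at least 2.22-fold higher. Cx3cl1, a membrane-bound chemokine, was at 7.81, 7.70 and 7.02 with LPS, against 6.53, 6.42 and 6.53 untreated. Its change of 1.02 ± 0.23 was called with all lines and had an adjusted p of 0.06 without WT5 and 0.0566 without WT7.

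**Figure D2:**
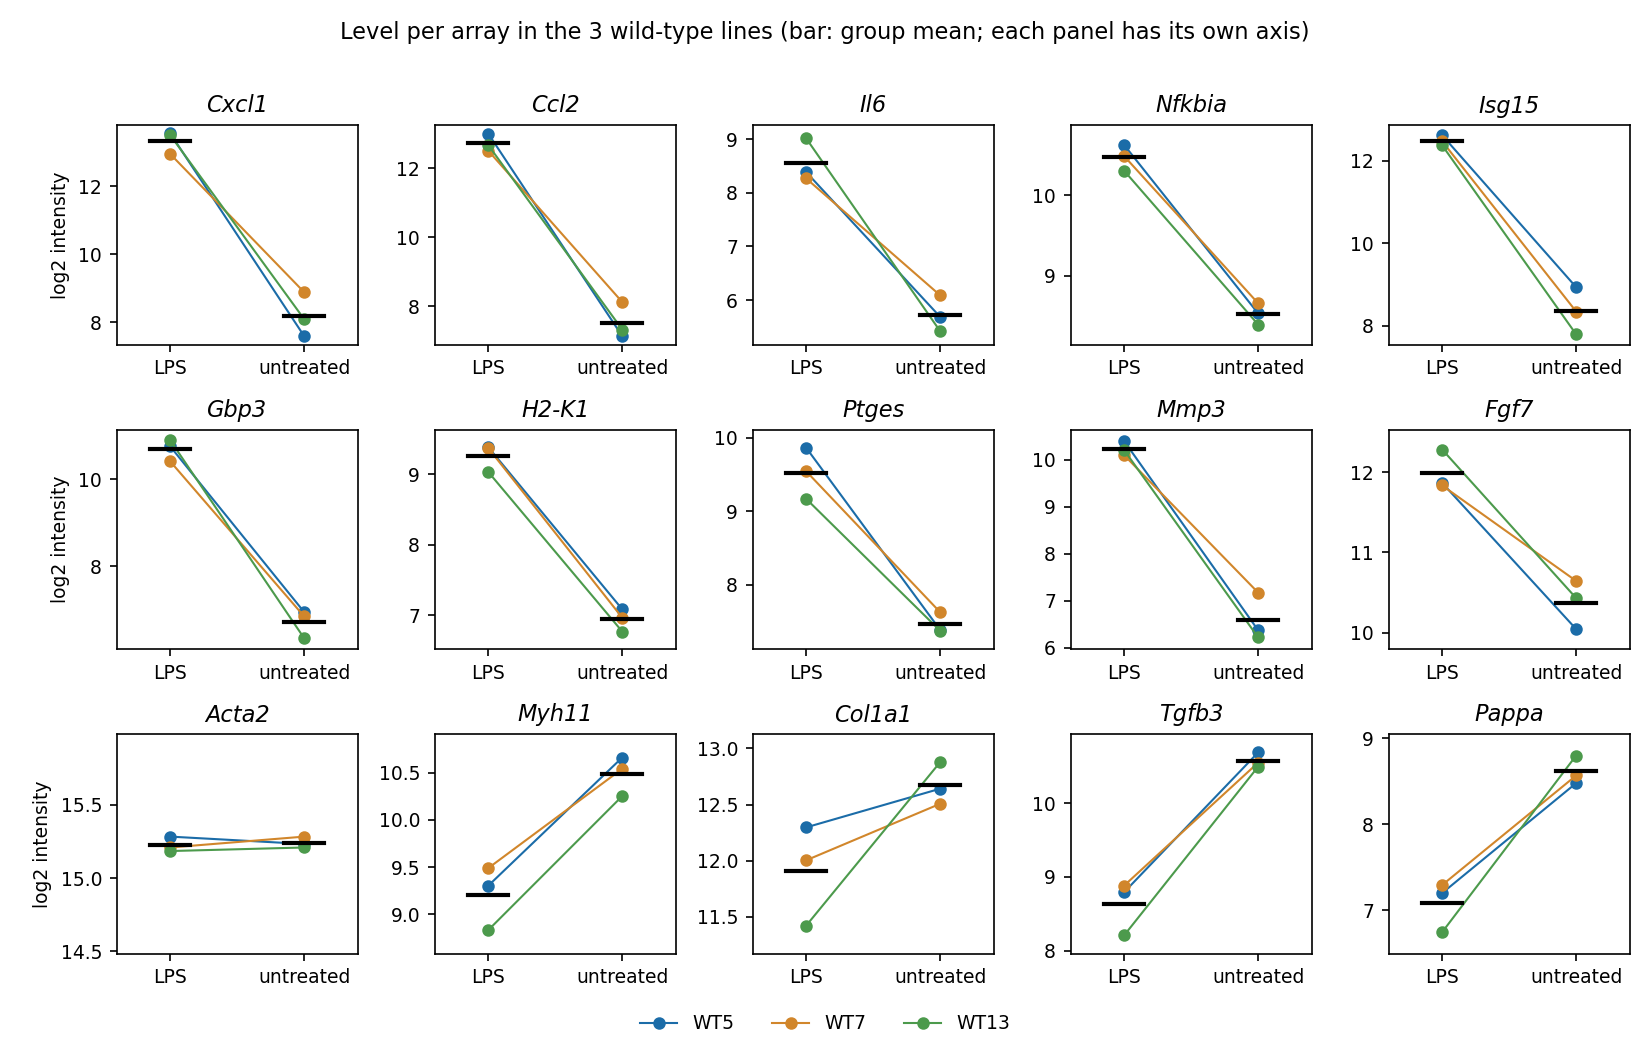
Log2 level of 15 genes in each WT line, with LPS on the left and untreated on the right of each panel; points are lines, bars are group means, and each panel has its own axis. Cxcl1 lies at 12.95 to 13.56 with LPS, against 7.58 to 8.88 untreated, while Myh11 lies at 8.83 to 9.49 with LPS, against 10.25 to 10.66 untreated and Acta2 does not separate.

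The kappaB letters GGGA, any 2 bases, then TTCC, taken on either strand, were searched in promoter windows of 250 bases before to 50 bases after each RefSeq start. A window was found for 8936 of the 11060 genes, and a gene with several starts counts if any window matches. These letters occurred in 1.52% of all genes with a window, in 2.43% of those higher with LPS and in 1.45% of those lower. They occurred in 8.06% of those higher 4-fold or more (5 of 62), in 4 of 8 CXC chemokines and in 0 of 10 CC and CX3C chemokines. Cxcl1, Cxcl2 and Cxcl10 count both among the 5 and among the CXC chemokines. The stretches below, from RefSeq and assembly GRCm38.p6 and written 5′ to 3′ on the strand of the gene, show these letters in capitals in 3 neighbouring CXC genes of chromosome 5, in Il6 and in Nfkbia. They lie at chr5:90891149-90891208 (plus strand, Cxcl1), chr5:90903777-90903836 (plus, Cxcl2), chr5:90786003-90786062 (plus, Cxcl3), chr5:30013045-30013104 (plus, Il6) and chr12:55492642-55492701 (minus, Nfkbia). A run of 11 capitals holds 2 overlapping matches. The CXC runs begin 71, 97 and 73 bases before the start in Cxcl1, Cxcl2 and Cxcl3, and the Il6 run begins 44 bases before it. Outside the shared capitals the Cxcl1 and Cxcl2 stretches differ, with 30 of 60 bases identical in all. A match describes the letters and is not evidence of binding.
Cxcl1: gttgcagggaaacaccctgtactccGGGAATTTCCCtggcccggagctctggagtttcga
Cxcl2: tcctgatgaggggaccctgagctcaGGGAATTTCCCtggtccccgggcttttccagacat
Cxcl3: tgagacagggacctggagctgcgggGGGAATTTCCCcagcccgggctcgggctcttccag
Il6: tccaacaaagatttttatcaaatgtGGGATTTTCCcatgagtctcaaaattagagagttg
Nfkbia: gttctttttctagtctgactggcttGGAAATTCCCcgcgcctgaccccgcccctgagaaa

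Of 19 cytokines and colony stimulating factors tested, 11 were higher and 1 was lower, with a median change of 0.77. The lower call was lost without WT5, WT13, KO4 or KO15. No untreated array detected 6 of the 19, and the median was 0.65 with bounds and 0.22 to 1.04 over the alternatives. Il1b, a fever-inducing cytokine of the interleukin-1 family, was at 10.72, 9.73 and 10.23 with LPS, against 4.39, 4.50 and 4.48 untreated, at least 39.5-fold higher with LPS. Il1a, its relative, was detected on 1 untreated array and rose by 4.24 ± 0.38. Csf2 (GM-CSF) was at least 8.22-fold higher. Il6, which drives the acute phase response, was at 8.38, 8.27 and 9.01 with LPS, against 5.69, 6.09 and 5.42 untreated. Its untreated values were above background and its LPS values clearly higher, most of all in WT13 (change 2.82 ± 0.25, adjusted p = 0.000113). The gp130 cytokines Lif and Il11 rose by 2.06 ± 0.18 and 1.04 ± 0.22. Tnf averaged 6.07 with LPS, against 4.53 untreated, at least 2.20-fold higher, and the interleukin-1 receptor antagonist Il1rn was at least 2.78-fold higher. Csf1, the macrophage growth factor, was already high at 12.14, 12.01 and 11.81 untreated, with 12.35, 12.31 and 11.90 with LPS, and its change of 0.20 was not called. Il33 and Csf3 were not called either, with changes of 0.65 and 0.08, although Il33 had an adjusted p of 0.0375 without WT5.

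On the receiving side, 12 of 27 cytokine receptor, STAT and SOCS genes were higher and 2 were lower, with a median of 0.25. Il13ra2, which binds interleukin-13 without passing on a full signal, was at 7.10, 6.83 and 7.32 with LPS, against 4.38, 4.23 and 4.30 untreated and at least 4.46-fold higher, and Il1r2, the interleukin-1 decoy, was at least 2.39-fold higher. Socs3, the feedback inhibitor of gp130 signalling, was at 10.48, 10.39 and 9.95 with LPS, against 8.90, 9.17 and 8.89 untreated, with separate groups (change 1.29 ± 0.11, adjusted p = 0.00011). Osmr, the oncostatin M receptor, and the death receptor Fas rose by 1.23 ± 0.13 and 1.25 ± 0.12. Socs2, an inhibitor of growth hormone signalling, and Tnfrsf11b (osteoprotegerin, a decoy for RANK ligand) fell by 0.70 and 0.61 on the log2 scale. These 2 were named after their values were seen. Stat3 had a change of 0.18 ± 0.10, not called. Complement genes were divided, with 3 of 10 higher and 3 lower (12.2% and 14.9% over all genes tested). That list does not hold C1qb and C1qc, whose changes were -1.52 and -1.70, and C3 had no named probe. Cfb, of the alternative pathway, was at 4.96, 4.83 and 4.94 with LPS, against 4.39, 4.49 and 4.42 untreated, detected on 2 LPS arrays and 0 untreated arrays (adjusted p = 0.0124, and 0.0664 without WT5, when 1 complement gene was called higher), and Masp1, a lectin pathway protease, fell to 11.76, 11.78 and 10.997 with LPS, against 12.95, 12.83 and 12.30 untreated.

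Nearly all interferon-stimulated genes that were tested rose. Of 53 antiviral genes listed, 43 were tested, 39 were higher and 0 lower, with a median change of 1.77. LPS values lay above all untreated values for 39 of 43 (16.9% over all genes tested). No untreated WT array detected 8 of the 43, and the median was 1.62 with bounds. Of the 10 interferon-inducible GTPases tested, which attack the vacuoles of intracellular pathogens, 9 were higher and 0 lower, with a median of 2.02 and separate groups for all 10. No untreated array detected 3 of these, and the median was 1.92 with bounds. Without background correction the antiviral and GTPase medians were 0.94 and 1.29. Without WT13 the calls were 37 of 43 and 8 of 10. Isg15, a ubiquitin-like protein, was at 12.61, 12.47 and 12.37 with LPS, against 8.94, 8.35 and 7.80 untreated. The treated lines lie closer together (SD 0.12) than the untreated lines (SD 0.57), and the groups do not overlap (17.4-fold, change 4.12 ± 0.22, adjusted p = 1.31e-05). Usp18, the protease that removes Isg15 from proteins, showed the same picture, at 12.12, 11.98 and 12.14 with LPS, against 8.31, 7.85 and 6.92 untreated (change 4.38 ± 0.27, adjusted p = 2.05e-05).

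Sensors, effectors and transcription factors of the interferon system were among the rises. Oasl2 and Oas1g, of the oligoadenylate synthetase family that senses double-stranded RNA, rose by 4.31 ± 0.23 and 3.48 ± 0.13. Trim30a rose by 4.17 ± 0.17 and Ifit3 by 3.25 ± 0.21. Irf7, the amplifier of interferon transcription, was at 8.43, 7.79 and 8.37 with LPS, against 4.73, 5.16 and 4.999 untreated, with 2 of 3 untreated arrays detected (change 3.24 ± 0.27, adjusted p = 8.93e-05). The membrane protein Bst2 (tetherin), which holds back budding virus, rose by 2.57 ± 0.37. Members of the Oas and Gbp families are similar in sequence, and a probe may read more than one. Irf1 had a small change of 0.32 (adjusted p = 0.0379), whose call was lost when any 1 of the 6 lines was left out (adjusted p = 0.181, 0.0548 and 0.0683 without WT5, WT7 and WT13, and 0.0631, 0.0604 and 0.0591 without KO4, KO10 and KO15).

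Among the GTPases, Gbp3, a guanylate-binding protein, was at 10.76, 10.41 and 10.90 with LPS, against 6.94, 6.84 and 6.33 untreated (15.9-fold, change 3.99 ± 0.21, adjusted p = 1.11e-05). All treated lines were far above all untreated lines. Gbp2 was at 11.85, 11.46 and 11.41 with LPS, against 9.31, 9.31 and 9.06 untreated (change 2.35 ± 0.15, adjusted p = 2.77e-05), and another, near-background probe gave 0.61. The immunity-related GTPases Igtp and Irgm2 rose by 2.53 ± 0.16 and 2.37 ± 0.18. Iigp1 was the member not called, at 4.91, 4.75 and 4.83 with LPS, against 4.65, 4.73 and 4.74 untreated, with 1 LPS array detected.

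The interferon response letters GAAA, any 2 bases, then GAAA, on either strand, were found in 3.63% of all genes with a promoter window. The share was 7.3% of those higher with LPS, 27.4% of those higher 4-fold or more (17 of 62) and 2.07% of those lower. They were present in 16 of 31 antiviral genes and in 7 of 7 GTPases with a window. Members of these lists such as Isg15 and Gbp3 also count among the 17. The 5 stretches below are shown for members with large rises, with matched letters and any overlapping matches in capitals, written 5′ to 3′ on the strand of the gene (RefSeq, GRCm38.p6). They lie at chr4:156200856-156200915 (minus, Isg15), chr5:120887594-120887653 (minus, Oas1g), chr3:142559977-142560036 (plus, Gbp3), chr11:58199497-58199556 (plus, Igtp) and chr11:58214888-58214947 (plus, Irgm2). The capitals of Gbp3 are the reverse complement of the searched letters. Igtp and Irgm2, which lie next to each other on chromosome 11, are identical at 58 of the 60 bases shown. Again, a match is a description of letters only.
Isg15: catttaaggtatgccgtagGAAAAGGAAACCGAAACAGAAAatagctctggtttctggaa
Oas1g: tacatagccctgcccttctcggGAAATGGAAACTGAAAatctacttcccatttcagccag
Gbp3: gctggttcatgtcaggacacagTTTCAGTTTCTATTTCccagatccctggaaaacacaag
Igtp: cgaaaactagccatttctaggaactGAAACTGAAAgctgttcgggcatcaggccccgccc
Irgm2: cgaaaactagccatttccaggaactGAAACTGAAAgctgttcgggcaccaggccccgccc

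**Figure D3:**
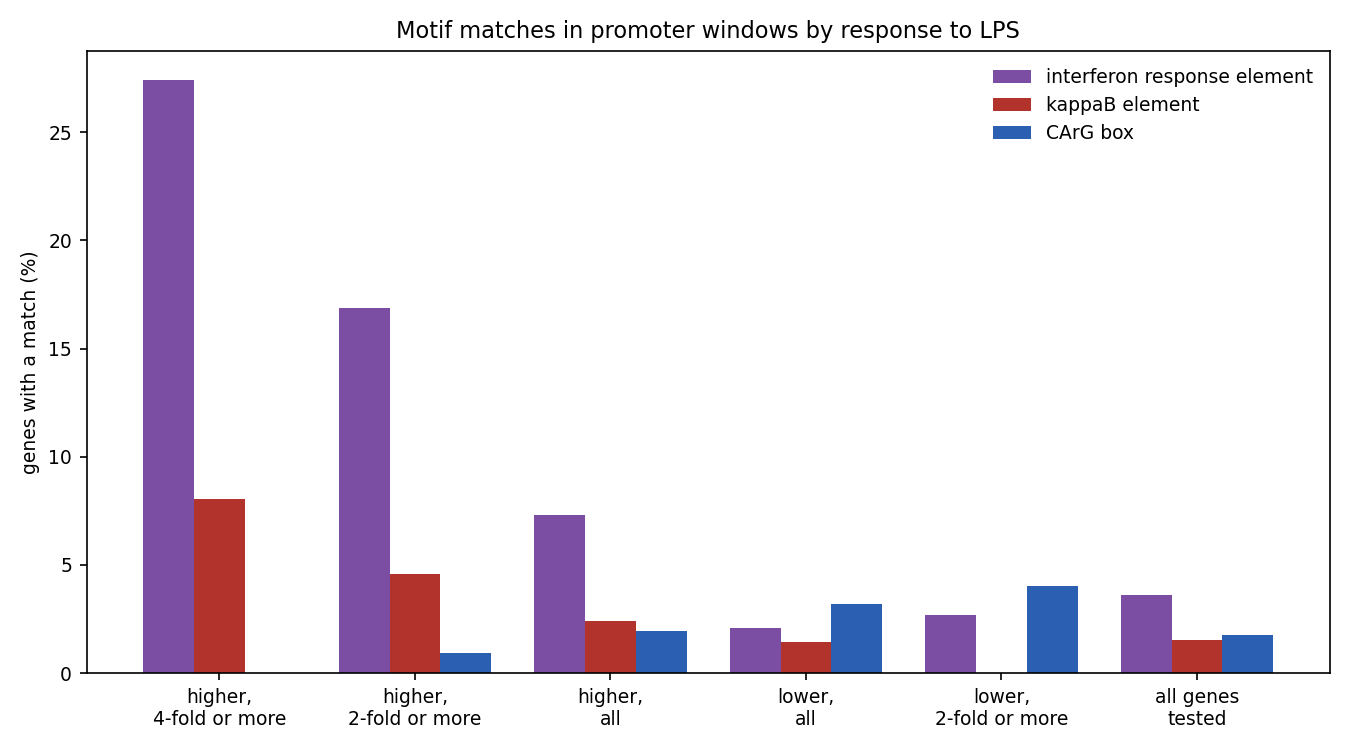
Percent of genes with a match to each of 3 motifs in their promoter windows (vertical axis), for 6 sets of genes. The interferon response letters occur in 16.9% of genes higher 2-fold or more, against 3.63% of all genes, and the CArG box in 3.22% of genes called lower, against 1.78% of all genes.

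The spread between lines was read in the same way. Over 9251 genes detected on all 6 WT arrays, the median SD between lines was 0.170 with LPS and 0.102 untreated, and the SD was smaller with LPS in 28.8% of genes. For the 28 antiviral genes detected on all 6 arrays these medians were 0.201 with LPS and 0.293 untreated, and the SD was smaller with LPS in 18 of 28. Untreated WT13 was the lowest line for 25 of the 28 and for 6 of 6 GTPases, against 3204 of the 9251 genes. In 18 of the 28 the untreated lines ranked WT5, WT7, WT13 from high to low, as did 1630 of the 9251 genes, and with LPS 10 of the 28 did. With 3 lines, and with genes that share an array, this order was not tested. The spread with LPS includes the WT13 array that correlated least with its group, and it was not read without that line.

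**Figure D4:**
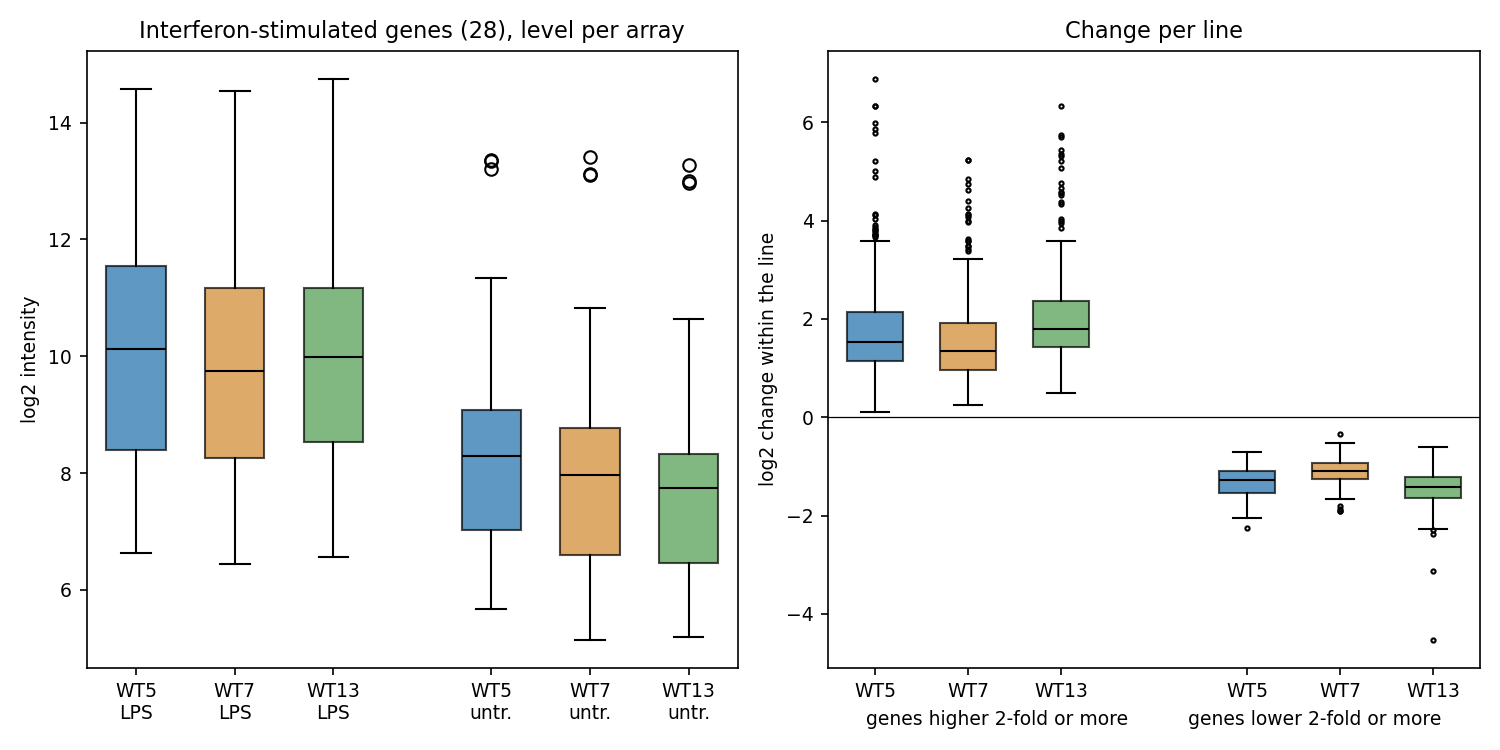
Left, log2 level of the 28 interferon-stimulated genes detected on all 6 WT arrays, 1 box per array (quartiles, whiskers to 1.5 times the interquartile range, points beyond); right, change with LPS in each line for genes called higher or lower by 2-fold or more. Medians of the right-hand rises are 1.52 in WT5, 1.34 in WT7 and 1.80 in WT13.

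MHC class I genes, which present peptides to T cells, rose with the proteins that load them. Of 24 tested, 18 were higher and 0 lower, with a median of 0.92, and 21 of 24 had LPS values above all untreated values (16.9% over all genes tested). Without background correction the median was 0.48. H2-K1, a classical class I heavy chain, was at 9.38, 9.37 and 9.03 with LPS, against 7.09, 6.97 and 6.77 untreated (change 2.32 ± 0.19, adjusted p = 8.61e-05). The change was nearly the same in each line. H2-D1 rose by 1.65 ± 0.15 and H2-Q7 by 2.08 ± 0.15, but class I genes are near-identical copies and the same limit holds for their probes. B2m, the invariant light chain, was at 14.67, 14.50 and 14.50 with LPS, against 13.72, 13.74 and 13.68 untreated, a smaller change from a high level (0.84 ± 0.10). The immunoproteasome subunits Psmb8 and Psmb9 rose by 1.96 ± 0.11 and 1.36 ± 0.14, and the peptide transporter Tap1 by 0.68 ± 0.14. Nlrc5, the transactivator of class I genes, was detected on 0 untreated arrays and was at least 2.18-fold higher.

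Because many of these genes are also made by leukocytes, the markers of other cells were read on the same arrays. Of 25 macrophage and leukocyte markers, 15 were tested, 6 were higher and 4 lower, with a median of -0.14. Over all genes tested, 12.2% were higher and 14.9% lower. Adgre1, which encodes a surface marker of macrophages, was at 7.19, 6.57 and 7.41 with LPS, against 5.63, 4.53 and 4.65 untreated, detected on 3 LPS arrays and 1 untreated array, and S100a8, a neutrophil and macrophage protein, was at 9.06, 9.86 and 9.27 with LPS, against 5.63, 6.77 and 5.81 untreated. In the opposite direction, Laptm5, a haematopoietic lysosomal protein, was at 8.46, 7.83 and 7.59 with LPS, against 9.41, 8.55 and 8.91 untreated (change -0.99 ± 0.13, adjusted p = 0.000848). The macrophage-made complement genes C1qb and C1qc, which are not in this marker list, fell too, by 1.52 and 1.70 on the log2 scale. Within the list the changes ran from -1.26 to 3.33. The mean level of the leukocyte markers detected on all 6 arrays was 7.96, 7.75 and 7.68 with LPS, against 7.73, 7.37 and 7.48 untreated. No kept probe named Ptprc, the pan-leukocyte gene. Their part in the chemokine, cytokine and interferon results was not tested. In bulk RNA, fewer cells of a type and less RNA per cell cannot be told apart.

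Calls in the other marker lists stand beside 12.2% higher and 14.9% lower over all genes tested. Epithelial markers gave 0 higher and 2 lower of 9 tested (1 lower without WT5), and Epcam had no kept probe. Endothelial markers gave 0 higher (1 without WT13) and 1 lower of 7, glial and neuronal markers 1 higher (0 without WT5, WT7 or KO15) and 0 lower of 4, and mesothelial and Cajal cell markers 2 higher and 1 lower of 4. In the last list 1 was higher without any one of the 6 lines. Of 22 fibroblast and myofibroblast markers, all tested, 3 were higher and 8 lower, with a median of -0.18. Vim (vimentin) was at 13.44, 13.48 and 13.33 with LPS, against 14.04, 13.95 and 14.11 untreated, high in both groups.

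Enzymes that make small mediators changed in part. Of 14 prostaglandin genes, 4 were higher and 2 lower (1 lower without WT13), against 12.2% and 14.9% over all genes tested. Ptges, the inducible prostaglandin E synthase, was at 9.87, 9.55 and 9.17 with LPS, against 7.38, 7.62 and 7.37 untreated (change 2.07 ± 0.16, adjusted p = 5.69e-05), with separate groups. Ptgs2 (COX-2), which acts just before it, was at 9.78, 9.42 and 11.12 with LPS, against 8.36, 8.73 and 8.19 untreated, and the highest LPS value is that of WT13. Its change was 1.68 ± 0.33 with all lines and 1.06 without WT13, still called. Of 14 nitric oxide, arginine and immunometabolic genes, 7 were higher and 0 lower (1 lower without WT7), with a median of 0.47, or 0.37 with bounds. Acod1, which makes itaconate, was at least 6.16-fold higher. Ch25h, which makes 25-hydroxycholesterol, and Gch1, which makes the cofactor tetrahydrobiopterin, rose by 2.59 ± 0.22 and 2.11 ± 0.11. Nos2, the inducible nitric oxide synthase, was at 5.43, 4.90 and 5.01 with LPS, against 4.53, 4.76 and 4.80 untreated, with 0 untreated arrays detected, and its change of 0.42 ± 0.23 was not called. Nor was that of Arg2, at 0.33.

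Antioxidant genes rose in 13 of 20 tested and fell in 2 (1 without WT5 or WT13), with a median of 0.61. Hmox1 (heme oxygenase) rose by 1.45 ± 0.11. Sod2, the mitochondrial superoxide dismutase, had LPS values of 12.65, 12.64 and 12.64, against 11.74, 11.77 and 11.78 untreated, tight in both groups (change 0.88 ± 0.14, adjusted p = 0.00251). The 2 that fell, named after their values were seen, were the glutathione peroxidases Gpx1 and Gpx3, by 0.49 and 0.46 on the log2 scale.

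Several secreted matrix proteases rose, while most calls among matrix genes were falls. Of 23 protease and inhibitor genes, 9 were higher and 6 lower (12.2% and 14.9% over all genes tested), with a median of 0.03. Mmp3 (stromelysin) was at 10.40, 10.10 and 10.21 with LPS, against 6.37, 7.17 and 6.22 untreated (12.6-fold, change 3.65 ± 0.34, adjusted p = 0.000162). Mmp13 (collagenase) was at 12.78, 12.54 and 12.08 with LPS, against 9.31, 9.40 and 8.70 untreated (change 3.33 ± 0.19, adjusted p = 1.52e-05, with 0.79 from another, dim probe). Mmp10 and Mmp9 rose by 2.66 ± 0.17 and 2.76 ± 0.20, and Serpinb2, a plasminogen activator inhibitor, by 2.53 ± 0.18. Mmp14, the membrane-bound protease, and Timp3, a matrix-bound inhibitor, were lower, at 12.94, 13.11 and 12.68 with LPS, against 13.55, 13.53 and 13.59 untreated and 11.19, 11.69 and 10.89 with LPS, against 12.11, 12.34 and 12.23 untreated. Their groups did not overlap. Timp1, a soluble inhibitor, was at 14.44, 14.44 and 14.28 with LPS, against 14.06, 14.01 and 13.96 untreated, called with all lines but not without WT5 (adjusted p = 0.0764) or WT7 (0.0662). Of 13 adhesion molecules for leukocytes, 7 were higher and 1 lower, with a median of 0.53, or 0.29 with bounds. Icam1 and Vcam1, the ligands of leukocyte integrins, rose by 0.95 ± 0.14 and 0.60 ± 0.10.

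All calls among contractile genes were falls. Of 30 smooth muscle genes listed, 28 were tested, 0 were higher and 16 lower, with a median change of -0.41. Without WT13, 13 were lower, and in a fit of the WT arrays alone 10 were. Acta2, the smooth muscle actin that defines these cells, was at 15.28, 15.21 and 15.19 with LPS, against 15.23, 15.28 and 15.21 untreated, high in both groups, and its change of -0.02 ± 0.08 was not called. That value depended on the probe and the scaling: it was -0.28 (adjusted p = 0.0625) with the probes averaged and -0.32 (adjusted p = 0.0497) scaled to the 75th percentile. Myh11, the smooth muscle myosin heavy chain, was at 9.30, 9.49 and 8.83 with LPS, against 10.66, 10.54 and 10.25 untreated, and its groups are separate (2.43-fold lower, change -1.28 ± 0.12, adjusted p = 0.000178). Mylk, the kinase that starts contraction, was at 13.17, 13.43 and 12.24 with LPS, against 14.17, 14.26 and 13.84 untreated, with WT13 lowest in both groups (change -1.15 ± 0.16, adjusted p = 0.00123). Lmod1 (leiomodin) fell by 1.14 and Tagln (transgelin) by 0.61 on the log2 scale. Csrp1, an actin-bundling LIM protein, fell by 0.60.

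Srf, the serum response factor that drives many contractile genes through the CArG box, was at 10.58, 10.73 and 10.37 with LPS, against 11.08, 11.002 and 10.83 untreated (change -0.41 ± 0.09, adjusted p = 0.0115, and adjusted p = 0.0672 without WT5). The CArG box was found in 1.78% of all genes with a promoter window, in 3.22% of those lower with LPS, in 1.97% of those higher and in 5 of 24 contractile genes. It is shown in capitals for Srf itself, which has 2 boxes within the stretch, and for Myl6, a myosin light chain whose change was -0.53 ± 0.10. The stretches lie at chr17:46556200-46556259 (minus, Srf) and chr10:128493025-128493084 (minus, Myl6), written 5′ to 3′ on the strand of the gene (RefSeq, GRCm38.p6).
Srf: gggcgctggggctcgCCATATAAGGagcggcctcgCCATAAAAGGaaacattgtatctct
Myl6: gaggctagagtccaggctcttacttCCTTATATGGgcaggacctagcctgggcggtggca

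Of 19 collagen chains tested, 8 were lower and 1 higher (0 higher without WT5 or WT13), with a median of -0.33. Over all genes tested, 14.9% were lower and 12.2% higher. The lower calls numbered 5 in the authors' processed values and without background correction. Col1a1, of fibrillar collagen I, was at 12.30, 12.005 and 11.42 with LPS, against 12.64, 12.51 and 12.88 untreated. WT13 with LPS was the lowest value and its own untreated array the highest, so the change was -0.77 ± 0.19, adjusted p = 0.0189 with all lines and -0.42 (adjusted p = 0.0479) without WT13. Col7a1, the anchoring fibril collagen, was at 7.20, 7.18 and 7.0002 with LPS, against 7.92, 8.07 and 8.04 untreated, with tight groups (change -0.88 ± 0.10, adjusted p = 0.000449). Col3a1 was at 7.34, 7.55 and 8.29 with LPS, against 8.10, 8.10 and 8.10 untreated, and WT13 alone lay above its untreated value. Its change of -0.37 was not called with all lines and was -0.65 (adjusted p = 0.0229) without WT13.

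Among 39 matrix glycoproteins and collagen-modifying enzymes, 3 were higher and 17 lower (11 lower in the WT arrays alone), with a median of -0.22. The shares over all genes tested were 12.2% higher and 14.9% lower. Tgfbi, a matrix protein induced by TGF-beta, was at 5.90, 6.17 and 5.70 with LPS, against 7.36, 7.59 and 7.59 untreated (change -1.59 ± 0.16, adjusted p = 0.000209). The small proteoglycan Ogn (osteoglycin) fell by 1.69, although another, dim probe gave -0.14. Fn1 (fibronectin) was at 12.77, 12.76 and 12.31 with LPS, against 13.45, 13.34 and 13.30 untreated on its brighter probe, a change of -0.75 ± 0.11, while its other probe gave 0.24 and was not called. Dcn (decorin) went the other way, at 13.74, 13.47 and 13.26 with LPS, against 13.26, 12.86 and 12.17 untreated (change 0.73 ± 0.13, adjusted p = 0.00392).

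The greatest falls outside these lists included matrix receptors. Itga11 and Itga1, collagen-binding integrin chains, were at 8.30, 8.44 and 7.92 with LPS, against 10.56, 10.35 and 9.91 untreated and 5.99, 6.26 and 5.69 with LPS, against 8.05, 7.70 and 7.40 untreated. Every LPS value of either gene was below every untreated value, with changes of -2.05 ± 0.12 and -1.74 ± 0.14. Aoc3, an amine oxidase abundant in smooth muscle, was at 4.81, 4.87 and 5.06 with LPS, against 6.60, 6.74 and 7.44 untreated (4.03-fold lower). Its LPS values lie in the range described for untreated Lcn2 as near the detection limit, so that fold may be set in part by background. Mgp, an inhibitor of calcification, fell 3.42-fold. Prss23, a serine protease, had the greatest fall on average, but its LPS values were 7.72, 7.94 and 4.35, against 9.10, 8.53 and 8.87 untreated, and 1 array decides its size. The change was -2.17 with all lines and -0.99 without WT13, still called.

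Growth factor families were divided member by member. In the TGF-beta list 3 of 21 were higher and 6 lower (12.2% and 14.9% over all genes tested), with a median of -0.10. Tgfb3 was at 8.79, 8.88 and 8.21 with LPS, against 10.69, 10.55 and 10.50 untreated (3.87-fold lower, change -1.95 ± 0.14, adjusted p = 3.81e-05), and Tgfb2 fell by 0.83. Tgfb1 had values of 9.05, 8.56 and 8.45 with LPS, against 8.56, 8.22 and 8.50 untreated, which overlap, and was not called. The co-receptor Tgfbr3 rose by 1.19 ± 0.13, and Fst (follistatin), an activin antagonist, fell by 0.95.

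Among BMP, Wnt and hedgehog genes of the crypt niche, 5 of 28 were higher (3 without WT13) and 6 lower, with a median of -0.07, shares near those of all genes. Rspo3, a secreted amplifier of Wnt signalling that sustains crypt stem cells, was at 9.38, 9.25 and 8.63 with LPS, against 8.31, 7.88 and 7.49 untreated. It was higher with LPS in each line, with WT5 highest in both groups (change 1.19 ± 0.12, adjusted p = 0.000271). Bmp4 was at 9.24, 9.15 and 8.44 with LPS, against 9.94, 9.83 and 9.25 untreated (change -0.73 ± 0.14, adjusted p = 0.00581), and Id1, a BMP target, fell by 0.79. Grem1, a BMP antagonist, had a change of 0.36 (adjusted p = 0.0231; 0.0502 without WT7 and 0.0814 without WT13). Gli2, a hedgehog transcription factor, fell by 0.86. Wnt5a was at 11.27, 11.004 and 11.08 with LPS, against 11.27, 11.40 and 11.27 untreated and was not called.

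Stromal growth factors for epithelium and vessels gave 8 higher and 6 lower of 27 (3 lower without WT5), with a median of -0.03. The shares over all genes tested were 12.2% and 14.9%. Fgf7 (keratinocyte growth factor), which acts on epithelium, was at 11.87, 11.84 and 12.28 with LPS, against 10.04, 10.64 and 10.43 untreated (3.08-fold, change 1.62 ± 0.19, adjusted p = 0.000521). Ereg, a ligand of the EGF receptor, was at 5.91, 6.01 and 6.69 with LPS, against 4.69, 5.35 and 4.81 untreated, with 1 untreated array detected. Vegfc and Vegfa, growth factors of lymphatic and blood vessels, rose by 1.44 ± 0.17 and 0.87 ± 0.10. Hgf rose by 0.55 (adjusted p = 0.0117, and 0.0699 without WT5). Ptn (pleiotrophin) was at 8.58, 8.28 and 8.35 with LPS, against 10.30, 9.84 and 10.62 untreated, with separate groups (change -1.85 ± 0.17, adjusted p = 0.000131), and Kitl, the ligand of KIT, fell by 0.76. Nrg1 was at 6.30, 6.55 and 6.52 with LPS, against 6.66, 6.59 and 7.41 untreated, not called with all lines (adjusted p = 0.0774, and 0.0344 without WT7).

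In the insulin-like growth factor (IGF) list 1 of 14 was higher and 5 were lower (12.2% and 14.9% over all genes tested), with a median of -0.18. Pappa, a protease that frees IGF from its binding proteins, was at 7.20, 7.30 and 6.75 with LPS, against 8.48, 8.57 and 8.80 untreated (2.90-fold lower, change -1.53 ± 0.15, adjusted p = 0.000209). Igfbp6 fell by 1.13 and Igf1 itself by 0.70. Igfbp3 was the member that rose, by 0.72 (adjusted p = 0.0176; 0.086 without WT5 and 0.0735 without WT13). Igfbp5 was at 8.01, 8.14 and 7.93 with LPS, against 8.17, 8.05 and 7.74 untreated, with overlapping groups.

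**Figure D5:**
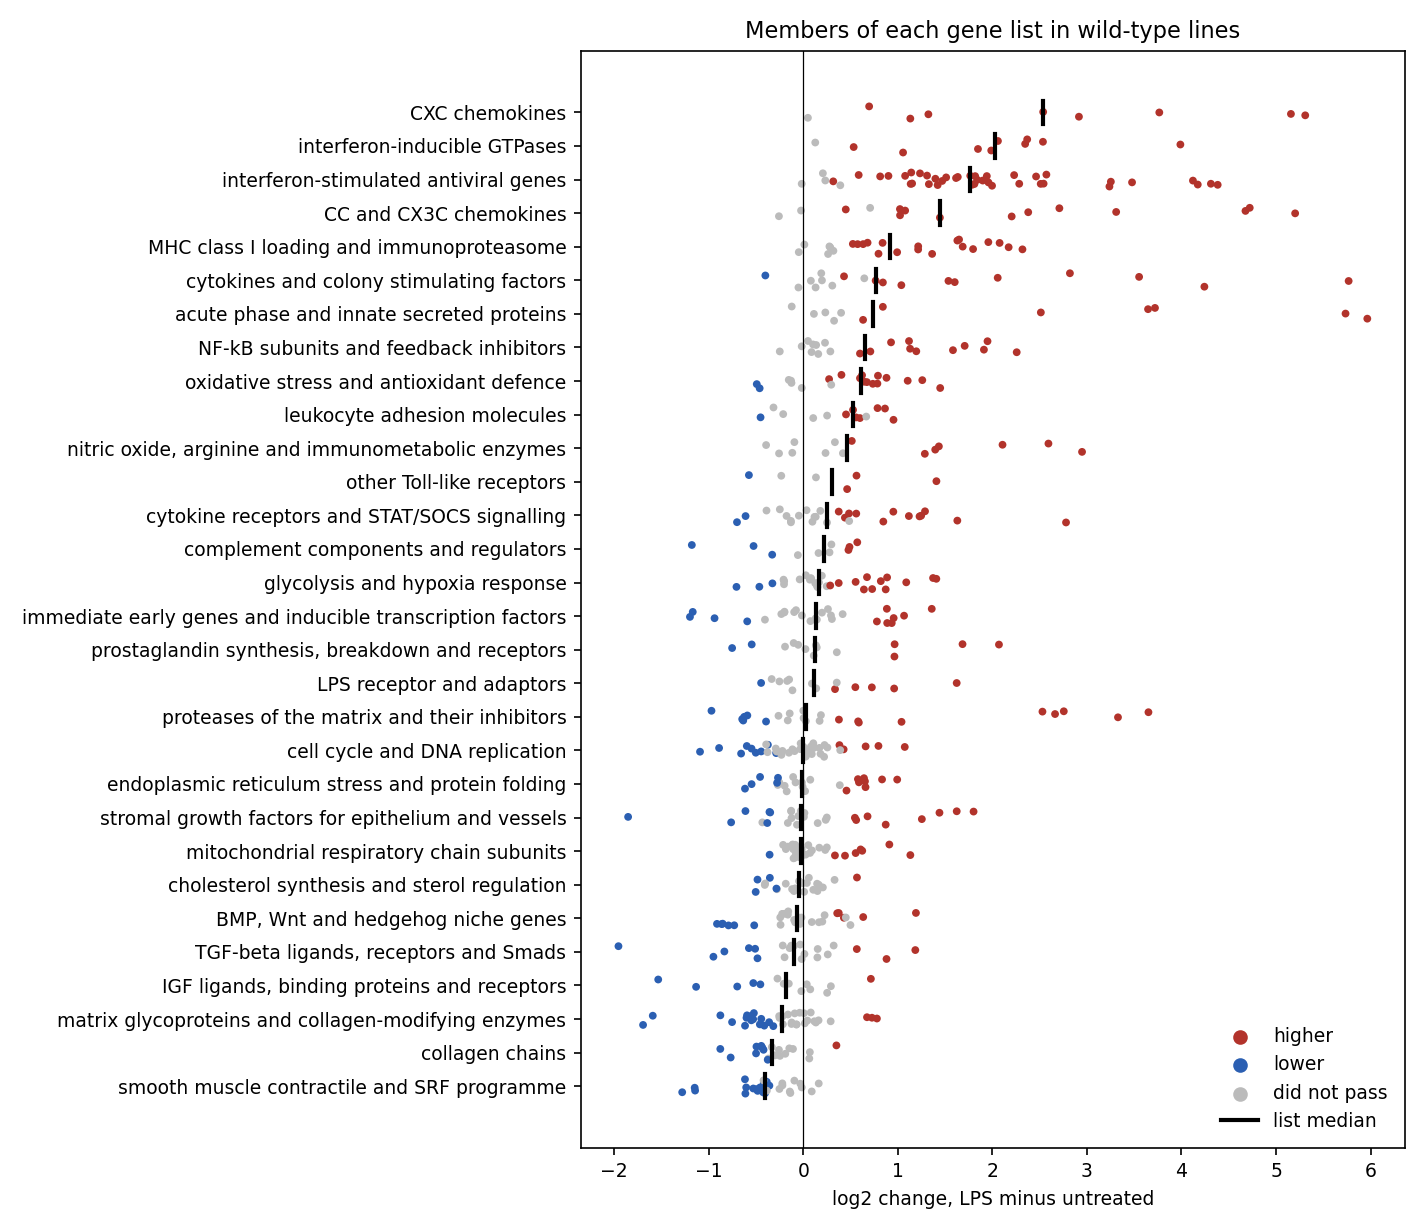
Change with LPS in WT lines (horizontal axis, log2) of every member tested in 30 gene lists, 1 row per list; points are genes and the black bar is the list median. Members detected in one group only are drawn at their measured change. The CXC chemokines and interferon-inducible GTPases have medians of 2.54 and 2.02, and the contractile list has the lowest, at -0.41.

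The remaining lists had calls in both directions, beside 12.2% higher and 14.9% lower over all genes tested. Of 29 glycolysis and hypoxia genes, 12 were higher and 3 lower (1 lower without WT13), with a median of 0.17. Egln3, the oxygen-sensing prolyl hydroxylase that marks Hif1a for degradation, was at 11.36, 11.36 and 11.57 with LPS, against 9.95, 10.11 and 10.01 untreated (change 1.41 ± 0.10, adjusted p = 3.44e-05), and Adm (adrenomedullin), a vasodilator peptide, and Hif1a rose by 1.37 ± 0.15 and 0.89 ± 0.13. Of 26 immediate early genes and inducible transcription factors, 7 were higher and 4 lower, with a median of 0.14. Cebpb, a partner of NF-kB at acute phase genes, rose by 1.07 ± 0.10 and the early response gene Ier3 by 1.36 ± 0.12, while Egr2 and Klf2 fell by 1.20 and 0.94. Fos was at 7.65, 7.60 and 7.99 with LPS, against 7.81, 8.28 and 7.44 untreated, with overlapping groups.

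Cell cycle genes were called higher in 5 of 43 and lower in 9, with a median of 0.00, shares near those of all genes, and these counts were 3 and 5 without WT13. Without WT5, 5 were lower. Pcna, the sliding clamp of DNA replication, was at 7.56, 7.45 and 8.16 with LPS, against 6.61, 6.46 and 6.87 untreated (change 1.07 ± 0.10, adjusted p = 0.000179), while Ccnd1 (cyclin D1) was at 13.55, 13.71 and 13.30 with LPS, against 14.15, 14.21 and 14.17 untreated and Cdkn1c, a cell cycle inhibitor, fell by 1.09. Cdkn1a was not called, with a change of -0.09.

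Endoplasmic reticulum stress genes were higher in 8 of 24 and lower in 5 (12.2% and 14.9% over all genes tested). Without one line at a time the lower calls numbered 1 (WT5 or WT13), 2 (KO10) or 3 (WT7, KO4 or KO15). The chaperone Hspa5 rose by 0.99 ± 0.12, while Trib3, a pseudokinase induced by stress, fell by 0.62. Respiratory chain subunits were higher in 7 of 33 (3 without WT13) and lower in 1 (0 without any one line except WT7), and cholesterol synthesis genes were higher in 1 of 23 and lower in 4, a count of 0 without WT13, 1 without WT5 and 2 without WT7, KO10 or KO15. Their medians were -0.01, -0.03 and -0.04, near that of all genes.

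The size of the response varied between lines. Over the genes called higher the median change was 0.58 in WT5, 0.51 in WT7 and 0.82 in WT13, and over those called lower it was -0.46 in WT5, -0.38 in WT7 and -0.64 in WT13. WT13 had the greatest change of the 3 in 63.4% of the genes called higher and WT7 the smallest in 53.4%. Over all 11060 genes tested, called or not, WT13 had the greatest change in 6226, so much of that share is not particular to the called genes. Across all 11060 genes, which are not independent, the changes of 2 lines correlated at r = 0.80 (WT5 and WT7), 0.76 (WT5 and WT13) and 0.72 (WT7 and WT13). The LPS array of WT13 is the one that stood apart, and its part in the greater changes of that line was not tested. Beside Prss23 and Ptgs2, the greatest spread among called genes included Hspe1, a mitochondrial chaperonin, at 10.83, 10.34 and 12.02 with LPS, against 9.67, 9.51 and 9.33 untreated (change 1.56, and 0.99 without WT13), and the mitochondrial gene COX2, with changes of 0.75, 0.73 and 2.64 in WT5, WT7 and WT13 (mean 1.38, and 0.74 without WT13).

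The null lines were treated in the same way and share no array with the WT lines. Their LPS arrays lay on the slide of the WT LPS arrays, and their untreated arrays on that of the untreated WT arrays. The genotypes also share the estimate of the spread, so their calls are not independent. In them 1922 genes were called, 949 higher and 973 lower. Of the rises in WT lines, 779 were also called higher in null lines, which is 82.1% of the null calls and 57.8% of the WT calls. Of the falls, 751 were shared, which is 77.2% of the null calls and 45.7% of the WT calls. Over all genes tested, 12.2% were called higher and 14.9% lower in WT lines. A gene called in one genotype and not in the other is not shown to differ. The difference itself, null minus WT, was called for 0 of 11060 genes by limma, with 624 at an unadjusted p under 0.05 and a smallest adjusted p of 0.0609. That value belongs to Gm4951, an interferon-inducible GTPase, with a change of 0.04 in null lines, against 2.06 in WT lines, and to Cep85. In WT lines Gm4951 was at 6.87, 6.13 and 7.06 with LPS, against 4.75, 4.54 and 4.59 untreated (at least 3.39-fold higher). Usp18 and Isg15 changed by 2.62 and 2.94 in null lines, against 4.38 and 4.12 in WT lines (adjusted p of the difference 0.797 and 0.797).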

How the data were processed

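Biotinylated cRNA from 12 samples was hybridised to Illumina mouse bead arrays, per the labels' protocols. The authors deposited, per the file headers, unnormalised linear intensity values. Beside each stands the deposited detection p-value, per the file headers, from a comparison with the negative controls. A table of processed intensity values by the authors served as an alternative: from its values it is linear and not centred, with column medians of 122.4 to 122.5, and it runs in the direction of the signals. The submitters' processing notes name BeadStudio, with settings not given in the sources used here.

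Normalisation used neqc (limma 3.58.1, R 4.3.3), with background from the detection p-values, an offset of 16, quantiles and log2. The filter kept probes whose detection p was under 0.05 on 3 or more of the arrays, and 17886 of these had 1 gene symbol from the platform annotation. The brightest on average stood for its gene, which gave 11060 genes. Other probes of called genes numbered 1951, of which 1552 had the same sign. For a lower bound, each array of the dim group was set to its lowest detected signal, or to the probe's own signal where that was higher. The list medians with bounds were added after the data were seen, and put a gene with no bound above 1-fold at 0.

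One limma fit (lmFit and eBayes, two-sided) held the 6 lines as a block and an LPS effect for each genotype, so both genotypes share the estimate of the spread. The labels pair the arrays of a line. Deviations from the group mean correlated within lines at 0.14 to 0.52, and each line correlated best with itself. An exact test of 3 pairs could not go below p = 0.25. The fit was tested on simulated data. The members and gene lists were chosen with earlier results of these data known. Genes named were drawn from the 15 greatest rises and falls detected in both groups, the 8 greatest bounds in each direction, up to 8 called genes of each list, a list of core genes, the 8 most and least variable between lines, and the 6 with the smallest p for the difference between genotypes. The alternatives changed the block, the arrays in the fit, the normalisation, the offset, the background, the filter, the probe rule and the lines included. The number of value columns left unused was 0. Probes for miR-143 and miR-145 were not analysed here. The number of arrays limits the precision.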

Additional observations from a re-analysis of the deposited data

Results flagged for a closer look

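For 2 genes every WT line moved one way with LPS and every null line the other, although the difference between genotypes was not called by limma. Cep85 changed by 0.60 in null lines and by -0.61 in WT lines, a difference of 1.21 (adjusted p = 0.0609). Rprd2 changed by -0.60 in null lines and by 0.21 in WT lines, a difference of -0.82 (adjusted p = 0.616). Outside the genes with a single symbol, 3238 kept probes were tested apart, and 616 were called between LPS and untreated WT arrays, 317 higher and 299 lower, with a greatest rise of 4.62 on the log2 scale. Their genes are not named here.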

How the results depend on the processing

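LPS and slide cannot be told apart, 3 lines per genotype limit the precision, and probes near background give only bounds. Of 16 alternatives, all left at least 377 of the 395 changes of 2-fold or more called in the same direction. Without the replicate block (arrays taken as independent) 1162 genes were higher and 1364 lower, the leukocyte markers called numbered 3 higher and 1 lower, and the calls of Kitl, Dcn, Il11, Vcam1, Igf1, Laptm5, C1qb and Cep85 were among the 14 lost of 149 named. In the WT arrays alone 887 genes were lower, and Prss23 and Srf missed the threshold. Genes of 2-fold or more numbered 145 higher and 28 lower in the authors' processed values, 131 higher and 27 lower without background correction, and 56 lower with an offset of 50, which by construction shrinks log2 changes of dim probes. The share of higher calls was 45.1%, and 39.3% to 51.6% over the alternatives, lowest with scaling to the 75th percentile, which put the median change at -0.09 and Acta2 past the threshold at -0.32. Leaving out one line at a time, 928 to 1281 genes were higher and 958 to 1502 lower, 244 to 358 were 2-fold or more higher and 92 to 145 lower, and the difference between genotypes was called for 0 to 1 (1 without WT7). That difference was called for 1 gene with line as a random block and for 2 with a stricter filter or with probes averaged. The sign of 7 uncalled genes depended on the setting. Without one line at a time the changes ran from -0.049 to 0.013 for Acta2, -0.0022 to 0.18 for Csf3, -0.023 to 0.089 for Cxcl12, -0.42 to 0.20 for Fos, -0.037 to 0.14 for Igfbp5 and -0.0019 to 0.26 for Myd88. Cxcl12 was at -0.015 scaled to the 75th percentile and at -0.16 with probes averaged, and Stat3 at -0.048 with probes averaged. Of 36 list medians, 28 kept their sign under all 16 alternatives, and 33 moved by over 1.5 times or turned, many of them close to 0. The 8 that turned ran from -0.014 to 0.22 (matrix proteases), -0.077 to 0.029 (stromal growth factors), -0.071 to 0.024 (cell cycle), -0.080 to 0.061 (endoplasmic reticulum stress), -0.097 to 0.057 (respiratory chain), -0.24 to 0.12 (leukocyte markers), -0.22 to 0.091 (endothelial markers) and -0.047 to 0.26 (mesothelial and Cajal markers). The lower calls among fibroblast markers numbered 5 without the replicate block or with line as a random block. The causes were not tested.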
